A study of Mus musculus with 59 samples.

Results

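Neuropeptides, their granule proteins, processing enzymes and receptors were followed in poly(A) RNA sequencing of mouse cortex and hippocampus. The set holds 42 genes named by symbol, each of which stood on 1 of the 57180 gene rows of the count table: 17 peptide precursors, 1 peptide-binding protein, 6 granins, 4 processing enzymes and 14 receptors. The mice were males of 4 genotypes at 2 mitochondrial genes: wild type (Mrpl40 +/+, Slc25a1 +/+), Slc25a1 het (Mrpl40 +/+, Slc25a1 -/+), Mrpl40 het (Mrpl40 -/+, Slc25a1 +/+) and double het, which carried both heterozygous alleles. In that order there were 9, 7, 7 and 7 libraries of cortex and 8, 7, 7 and 7 of hippocampus. In all, 30 animals gave 59 libraries, and 29 animals are represented by both tissues. Citrate leaves mitochondria through the carrier that Slc25a1 encodes, and Mrpl40 encodes a protein of the mitochondrial ribosome. Age, strain and kind of mutation are not stated by the labels.

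Neuropeptides are made as long precursors that enter dense core granules of neurons. Granins help to form and load these granules, prohormone convertases cut the precursors, carboxypeptidase E trims the cut ends and the enzyme Pam amidates many of the finished peptides. The peptides are released during sustained activity and act through G protein-coupled receptors. In cortex and hippocampus most peptide genes mark classes of inhibitory interneurons, while Cck, Pdyn, Adcyap1, Grp and Nts are also made by excitatory cells.

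Library totals ranged from 21443017 to 32120906 counts. The targeted gene Slc25a1 lay on a low level of 10.8 to 13.1 CPM (counts scaled to a common library size) in 12 cortex libraries and on a high level of 21.0 to 26.3 CPM in the other 18. In hippocampus, 12 libraries lay between 10.8 and 12.9 CPM and 17 between 21.0 and 27.3 CPM. This level went against the label in 6 animals (wild type 6 and 7, Slc25a1 het 3 and 4, double het 5 and 6), so genotypes are given as labelled and values are also given without these animals. Mrpl40 had a mean of 17.9 ± 1.56 CPM (SD, n = 9) in wild-type cortex and 17.4 ± 1.58 CPM (SD, n = 7) in Mrpl40 het cortex, and thus could not check the label. The tissues differed in some of their defining markers: 11 neocortical layer genes summed to between 1081 and 1452 CPM in cortex and between 459 and 678 CPM in hippocampus, and 10 dentate granule cell genes to between 334 and 518 CPM in cortex and between 824 and 1702 CPM in hippocampus. The CA pyramidal cell genes did not separate the tissues, with 762 to 953 CPM in cortex and 601 to 1311 CPM in hippocampus. Among hippocampus libraries, Slc25a1 het 3 stood apart with 668 CPM of cerebellar markers, Mrpl40 het 5 and double het 6 with 78.8 and 98.4 CPM of choroid plexus markers, and wild type 8 had the most oligodendrocyte RNA (4929 CPM). The 10 hypothalamic markers were close to 0: their sum stayed between 1.21 and 3.47 CPM in all libraries, with Hmx2 and Hmx3 at 0 in most groups.

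Per length of exon, the carboxypeptidase gene Cpe had the highest level of the 42 genes in both tissues, with a mean of 739 CPM per kb in cortex and 924 CPM per kb in hippocampus. In cortex Chgb, a granin that aids granule formation, came next with 242 CPM per kb, followed by somatostatin (Sst) with 184, cholecystokinin (Cck) with 141, the granin Scg3 with 138 and the convertase chaperone Scg5 with 137 CPM per kb. Cck, Scg3 and Scg5 are neighbours in this order and differed by less than the spread of Cck between libraries. In hippocampus the order after Cpe was Chgb with 289, Scg3 with 130, Scg2 with 98.8, Cck with 90.2 and Sst with 76.9 CPM per kb. The receptor with the highest level was Cckbr in cortex (32.4 CPM per kb) and Npy2r in hippocampus (23.3 CPM per kb). The lowest level per kb in both tissues was that of the µ-opioid receptor Oprm1, with 0.0468 CPM per kb in cortex and 0.0249 in hippocampus. Oprm1 had 0 counts in 1 hippocampus library.

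**Figure D1:**
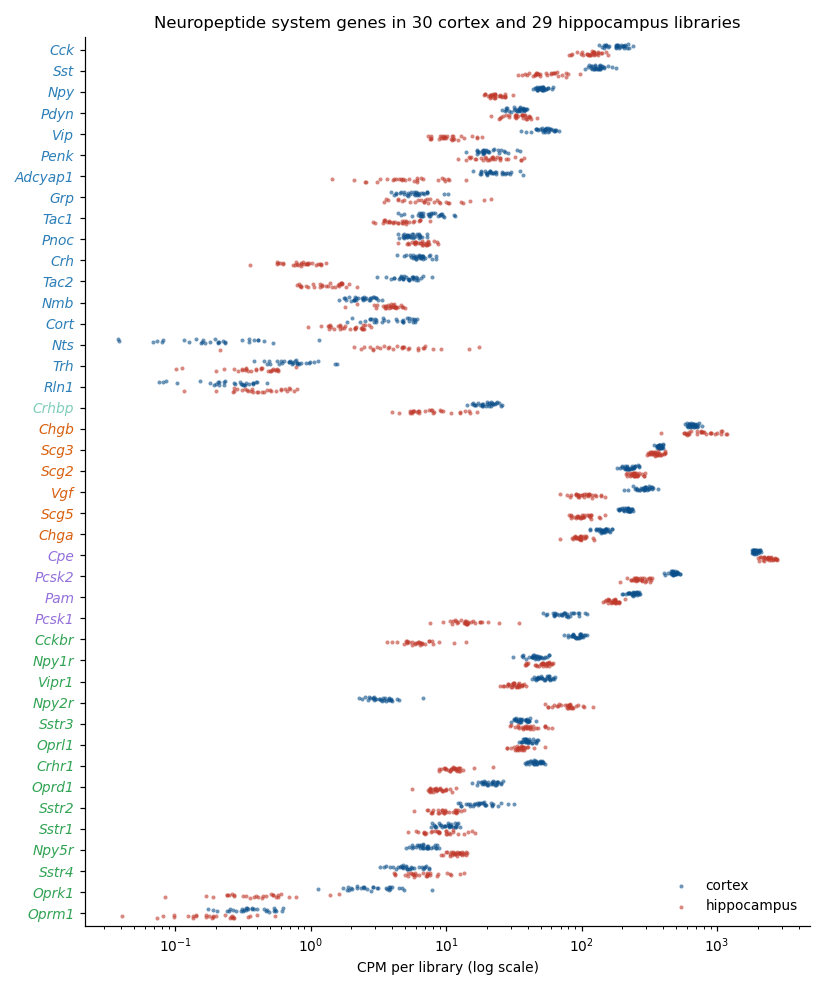
CPM of each of the 42 genes on a log axis, with 1 point per library in cortex and in hippocampus. The 2 tissues form separate clouds for genes such as Npy2r and Cckbr, and lie on each other for Penk and Pdyn. The library with 0 counts of Oprm1 cannot be drawn on this axis.

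The first question was how the 2 tissues differ within the same animal. Of the 42 genes, 39 differed between hippocampus and cortex by edgeR's quasi-likelihood test with the animal as a block (adjusted p under 0.05 over 21354 genes), 13 of them higher and 26 lower in hippocampus. That share has to be read against a background in which 77.4% of all genes tested passed the same test, 39.7% higher and 37.7% lower. At an unadjusted p under 0.05 there were also 39 members, against 78.6% of genes. Without the 6 animals that went against their label, 39 members differed as well. The median log2 difference was -0.67 over the set and 0.01 over all genes tested. By size, 17 of the 42 genes differed by more than 2-fold, 2 higher and 15 lower in hippocampus, against 13.7% of all genes tested. The CPM of 16 genes did not overlap between the 30 cortex and 29 hippocampus libraries, against a background of 15.0% of genes, and 14 of these were lower in hippocampus. In bulk tissue, fewer cells of a type and less RNA per cell cannot be told apart. Of the 17 peptide precursors, 5 passed higher and 10 lower. The single binding protein was lower, 2 granins were higher and 4 lower, 1 enzyme was higher and 3 lower, and 5 receptors were higher and 8 lower. Penk, Pdyn and Sstr1 were the 3 that did not pass.

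**Figure D2:**
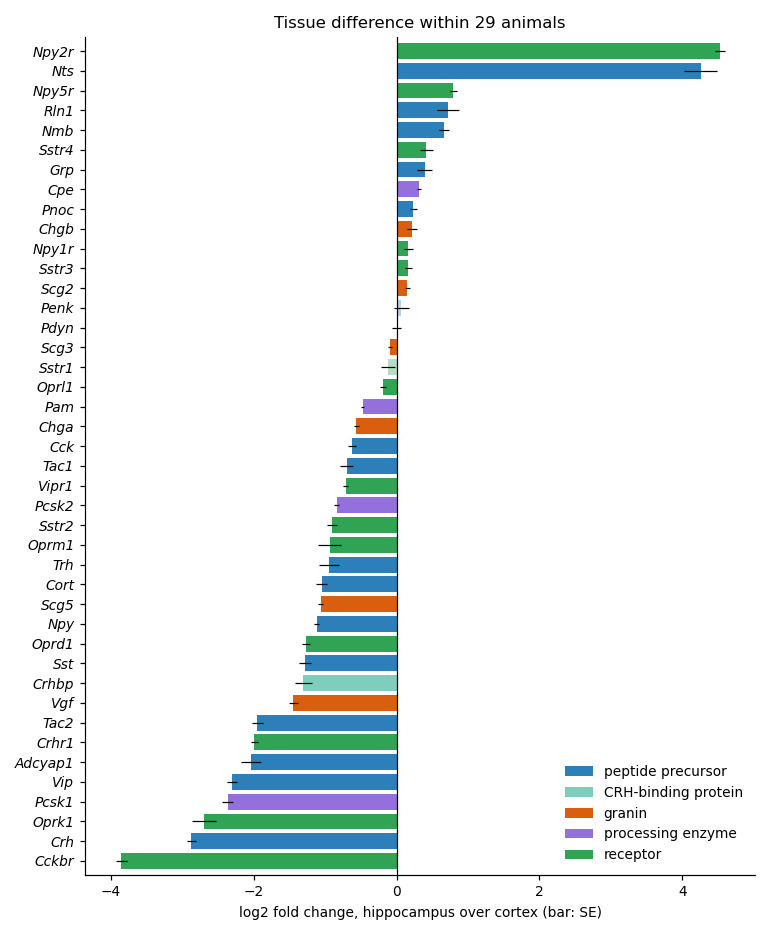
Log2 fold change of each gene, hippocampus over cortex, fitted within 29 animals, with the standard error as bar. Npy2r and Nts stand far to the right (4.52 and 4.26), and Cckbr, Crh and Oprk1 lie farthest to the left (-3.86, -2.87 and -2.70).

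Peptides known from interneurons came first. Sst, which marks dendrite-targeting interneurons, had values of 106 to 180 CPM in cortex (median 132, n = 30) and 34.1 to 97.5 CPM in hippocampus (median 49.7, n = 29). The ranges did not meet, and the log2 difference was -1.29 ± 0.083 (SE, edgeR adjusted p 1.09e-14). Npy, a peptide that dampens excitatory transmission, ranged from 43.7 to 61.9 CPM in cortex and from 18.9 to 31.3 CPM in hippocampus, a 2.18-fold difference seen in 29 of 29 animals. Vip, which marks interneurons that inhibit other interneurons, ranged from 35.7 to 68.6 CPM in cortex and from 7.40 to 18.4 CPM in hippocampus, with a log2 difference of -2.31 ± 0.072. Crh, the stress peptide corticotropin-releasing hormone, had a median of 6.35 CPM in cortex and 0.85 CPM in hippocampus, and at -2.87 ± 0.060 its difference was the largest among the peptides that were lower. Tac2, the precursor of neurokinin B, was 3.87-fold lower and the somatostatin relative Cort 2.07-fold lower. Tac1, the precursor of substance P, was 1.62-fold lower, in 26 of 29 animals.

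Peptides made by excitatory cells differed in both directions. Cck, made by a class of interneurons and by many pyramidal cells, ranged from 134 to 239 CPM in cortex (median 183) and from 81.3 to 157 CPM in hippocampus (median 119). These ranges overlapped, yet Cck was lower in hippocampus in 28 of 29 animals, by 1.55-fold. Adcyap1, which encodes PACAP, ranged from 15.7 to 36.8 CPM in cortex and from 1.44 to 14.0 CPM in hippocampus, with a log2 difference of -2.04 ± 0.14. Neurotensin (Nts) went the other way. It lay between 0.0378 and 1.15 CPM in cortex, where it did not pass the filter on low counts, and between 0.215 and 17.5 CPM in hippocampus. The log2 difference of Nts was 4.26 ± 0.23, with 28 of 29 animals higher in hippocampus. Grp, the precursor of gastrin-releasing peptide, had medians of 5.88 CPM in cortex and 7.20 CPM in hippocampus and a log2 difference of 0.39 ± 0.11 (adjusted p 0.00156).

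Nmb, which encodes neuromedin B, was 1.58-fold higher in hippocampus, but 20.6% of its exon bases overlap Sec11a on the same strand, so its counts are uncertain. Relaxin 1 (Rln1), at mean levels of 0.26 and 0.45 CPM, was higher in 25 of 29 animals, with a log2 difference of 0.71 ± 0.15. Pnoc, the nociceptin precursor, was 1.17-fold higher in hippocampus. Trh, at means of 0.78 and 0.41 CPM, was lower in 27 of 29 animals. The opioid precursors Penk and Pdyn had like means in both tissues: Penk 21.3 ± 4.87 and 22.4 ± 6.64 CPM, and Pdyn 33.8 ± 3.88 and 34.2 ± 6.19 CPM (SD, n = 30 and 29). Their adjusted p were 0.57 and 0.989. In the annotation, 14.3% of the exon bases of Penk overlap A830012C17Rik on the opposite strand. Crhbp, which binds and holds back Crh, was 2.48-fold lower in hippocampus in 28 of 29 animals.

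Granins and enzymes differed in both directions. Vgf, an activity-regulated granin and peptide source, ranged from 206 to 368 CPM in cortex and from 68.8 to 150 CPM in hippocampus, without overlap, at a log2 difference of -1.45 ± 0.059. Scg5, the chaperone of the convertase Pcsk2, was 2.09-fold lower and Chga, another granin, 1.48-fold lower. Scg3, which ties granins to the granule membrane, was 1.07-fold lower, while Scg2 was 1.11-fold and Chgb 1.16-fold higher in hippocampus. The 2 convertases differed unequally: Pcsk1 had a median of 73.9 CPM in cortex and 14.0 CPM in hippocampus (log2 difference -2.37 ± 0.079), whereas Pcsk2 had 478 and 262 CPM (-0.84 ± 0.036). Pam was 1.39-fold lower and Cpe 1.25-fold higher in hippocampus, both in 29 of 29 animals.

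Beside these differences, 14 of 16 immediate early genes were also lower in hippocampus, with a median log2 difference of -2.48. Their summed level lay between 1059 and 3702 CPM in cortex and between 440 and 793 CPM in hippocampus. Vgf, Scg2 and Pcsk1 are known as genes that neuronal activity can raise, and Scg2 was the one of the 3 that was higher in hippocampus. Of 18 interneuron genes, 14 were lower and 4 higher in hippocampus, with a median log2 difference of -0.59 and sums of 1433 to 1721 CPM in cortex and 1159 to 1507 CPM in hippocampus. Over all genes tested, 37.7% passed lower and 39.7% passed higher in hippocampus. The part of either list in the peptide differences was not tested.

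The receptors showed the widest range. Npy2r, a presynaptic receptor for Npy and peptide YY, lay between 2.27 and 6.79 CPM in cortex (median 3.33) and between 53.4 and 122 CPM in hippocampus (median 80.3). The fitted log2 difference was 4.52 ± 0.071, a 23.0-fold higher level in hippocampus. Npy5r was 1.73-fold higher in all 29 animals, and Npy1r, the main postsynaptic Npy receptor, was 1.12-fold higher. All 3 Npy receptors were thus higher in the tissue with less Npy. Cckbr, the brain receptor for cholecystokinin, ranged from 74.8 to 111 CPM in cortex and from 3.64 to 14.0 CPM in hippocampus. At -3.86 ± 0.080 it had the largest difference among the members that were lower, 14.5-fold. Crhr1, the main receptor for Crh, was 3.98-fold lower and Vipr1, a receptor for Vip and PACAP, 1.64-fold lower.

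Opioid and somatostatin receptors split. The κ-opioid receptor Oprk1 had medians of 2.83 CPM in cortex and 0.41 CPM in hippocampus (log2 difference -2.70 ± 0.16). The δ-opioid receptor Oprd1 was 2.42-fold, Oprm1 1.92-fold and the nociceptin receptor Oprl1 1.14-fold lower in hippocampus. Of the somatostatin receptors, Sstr2 was 1.87-fold lower in 29 of 29 animals, Sstr3, which sits on neuronal cilia, was 1.12-fold higher and Sstr4 1.34-fold higher. Sstr1 had means of 10.2 ± 1.41 and 9.52 ± 2.82 CPM (SD, n = 30 and 29) and an adjusted p of 0.23. In the 8 wild-type animals alone, 31 of the 39 members called over all animals passed, and 8 did not. Of these 8, Rln1 and Oprm1 did not pass the filter on low counts. The other 6 kept their direction, with edgeR adjusted p of 0.0627 for Chgb (log2 difference 0.30), 0.0666 for Tac1 (-0.61), 0.0768 for Oprl1 (-0.12), 0.11 for Sstr4 (0.20), 0.187 for Npy1r (0.12) and 0.233 for Scg3 (-0.06).

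Promoter sequence offered one feature that the choice of genes did not use. The cAMP response element, TGACGTCA, is the site known to bind CREB, which links neuronal activity and cAMP to transcription, and the Sst promoter is a textbook example. RefSeq promoters (GRCm38.p6) were matched for 34 of the 42 genes. In the 250 bases before the start, the full element stood in 5 of the 34 (14.7%), namely Sst, Scg2, Chgb, Pcsk1 and Sstr2, and in 478 of 27025 gene symbols overall (1.77%). Its core TGACG, which the full element contains, was found on either strand in 19 of 34 (55.9%) against 19.8% overall. TATAAA, searched on the gene's strand, was found in 3 of 34 (8.82%) against 8.94% overall. The 5 full sites are shown with their flanks because they are the shared sequence, read 5′ to 3′ on the gene's strand with the element in capitals.
Sst, minus strand, chr16:23890874-23890903: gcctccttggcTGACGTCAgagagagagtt
Scg2, minus strand, chr1:79440076-79440105: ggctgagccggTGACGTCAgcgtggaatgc
Chgb, plus strand, chr2:132781559-132781588: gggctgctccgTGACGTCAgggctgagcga
Pcsk1, plus strand, chr13:75089768-75089797: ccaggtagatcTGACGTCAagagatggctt
Sstr2, plus strand, chr11:113619258-113619287: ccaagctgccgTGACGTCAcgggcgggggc
The element began 48 bases before the RefSeq start in Sst, 58 in Sstr2, 68 in Scg2, 72 in Chgb and 78 in Pcsk1. These 5 genes had no common tissue direction: Sst, Pcsk1 and Sstr2 were lower in hippocampus, and Scg2 and Chgb higher. Matches are letters in a window and do not show binding.

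The wider peptide pathway was read from a list of other precursors, receptors, enzymes, inhibitors and granule proteins. Of 97 such genes on a single row, 66 passed the filter, and 60 of these differed between tissues, 27 higher and 33 lower in hippocampus, with a median log2 difference of -0.06. The background is again 77.4% of all genes tested, 39.7% higher and 37.7% lower. Galanin (Gal) was at 0 in 17 of 30 cortex libraries, with means of 0.0247 CPM in cortex and 0.675 CPM in hippocampus, and no fold is given for it. Besides Gal, the largest differences toward hippocampus were those of the melanocortin receptor Mc4r (2.46 ± 0.12), the Trh receptor Trhr (1.76 ± 0.24) and the neuromedin B receptor Nmbr (1.49 ± 0.10). The largest toward cortex were those of the second Trh receptor Trhr2 (-4.35 ± 0.11), the relaxin family receptor Rxfp2 (-2.70 ± 0.18), the sorting receptor Sorcs1 (-2.51 ± 0.082) and the neurotensin receptor Ntsr1 (-1.60 ± 0.11). Trhr and Trhr2 share a ligand and stood on opposite sides. So did the 2 neurotensin receptors: Ntsr1 had means of 7.79 and 2.61 CPM in cortex and hippocampus, while Ntsr2, with 84.6 and 124 CPM, was higher in hippocampus (0.56 ± 0.028).

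The next question was whether the peptide system differed between genotypes. By edgeR's quasi-likelihood test none of the 42 genes passed an adjusted p of 0.05 in the 12 comparisons of genotypes. In cortex 40 genes could be tested, since Nts and Rln1 did not pass the filter, and in hippocampus 41, since Oprm1 did not. Few genes of any kind passed: against wild type, 0% of genes tested in Slc25a1 het cortex, 0.0294% in Mrpl40 het cortex and 0.0686% in double het cortex, and 0%, 0.00496% and 0.00992% in hippocampus in the same order. The targeted gene Slc25a1 was thus itself not called between labelled Slc25a1 het and wild type, in cortex or in hippocampus. Without the 6 animals that went against their label, 1 gene passed in this comparison in cortex and 1 in hippocampus. This limits what the lack of calls among members can show for Slc25a1 het as labelled. Between double het and Slc25a1 het, 0.0588% passed in cortex and 0% in hippocampus, and between double het and Mrpl40 het 0.0049% and 0%. For the interaction (on the log2 scale, what the double het shows beyond the sum of the single hets), 0% passed in both tissues. At an unadjusted p under 0.05, the cortex comparisons with wild type held 1, 4 and 4 of the 40 genes (3.17%, 6.94% and 10.9% of all genes tested) for Slc25a1 het, Mrpl40 het and double het. The hippocampus comparisons held 5, 5 and 0 of 41 (7.77%, 8.19% and 5.28% of all genes tested). Between double het and Slc25a1 het there were 3 members in cortex and 5 in hippocampus (9.92% and 9.04% of all genes tested), between double het and Mrpl40 het 1 and 0 (6.94% and 4.68%), and for the interaction 1 and 1 (5.35% and 3.39%). The 3 comparisons with wild type in a tissue share the same wild-type libraries. limma on the deposited normalized counts also called 0 members in each of these 12 comparisons. DESeq2 called 1, Cck in hippocampus between double het and Slc25a1 het, where it called 14 of 20162 genes in all.

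Over the 3 comparisons with wild type, 118 of 120 values in cortex and 120 of 123 in hippocampus were under 0.5 in size on the log2 scale, with median standard errors of 0.097 and 0.14. The median log2 difference of the set was 0.01, -0.01 and 0.01 in cortex (Slc25a1 het, Mrpl40 het, double het) and -0.09, -0.06 and -0.03 in hippocampus, against medians within 0.01 of 0 over all genes tested. In Slc25a1 het hippocampus 28 of 41 genes lay below 0, against 48.1% of all genes tested. Many members are correlated within hippocampus (143 of 666 pairs, described below), so these 28 are not independent. On simulated counts for double het against wild type, changes of 1.5-fold were recovered for 89.6% of changed genes in cortex and 85.1% in hippocampus, and changes of 1.2-fold for 52.2% and 47.8%. The changed genes, 67 at each of these folds, were drawn from genes above 1 CPM. Far fewer genes passed in the real comparisons, so these shares do not state how often a change of a member would be found.

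**Figure D3:**
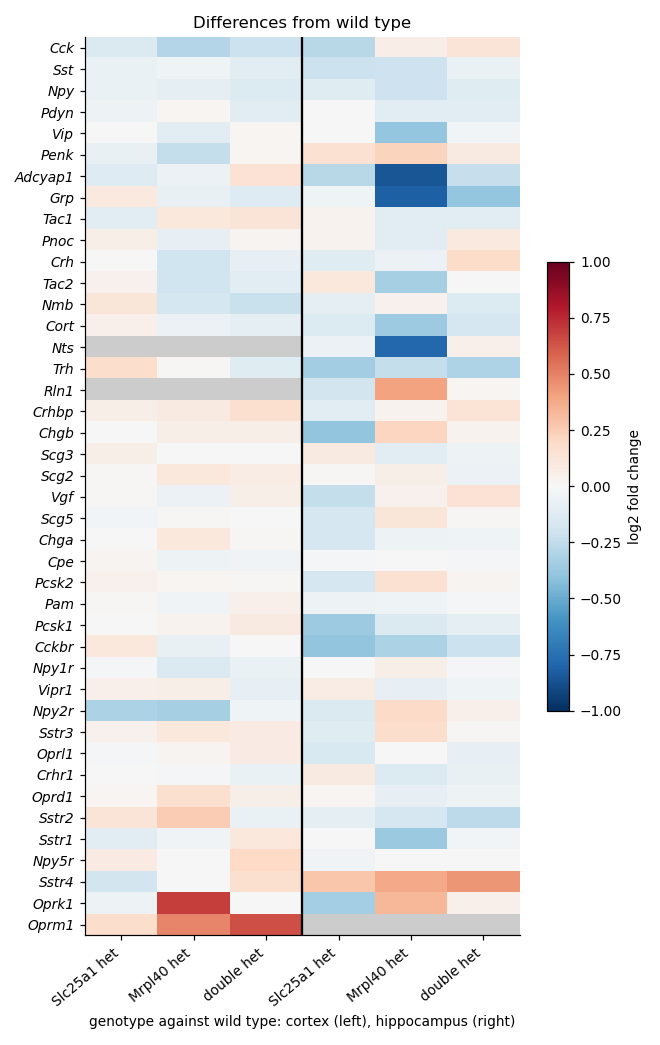
Log2 fold change of each gene against wild type, with 3 columns for cortex and 3 for hippocampus (blue lower, red higher, grey not tested). Most cells are pale, and the strongest colours are those of low or variable genes such as Oprk1 and Oprm1 in cortex and Adcyap1, Grp and Nts in hippocampus, none of which passed the test.

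Cck gave the smallest p in several of these comparisons. In hippocampus its CPM ranged from 110 to 128 in wild type (median 118, n = 8) and from 81.3 to 139 in Slc25a1 het (median 91.8, n = 7). Mrpl40 het libraries held 102 to 142 (median 131, n = 7) and double het libraries 111 to 157 (median 125, n = 7). Of the 7 Slc25a1 het libraries 6 lay below all wild-type libraries, and library 1 lay above them all. The log2 difference of Slc25a1 het from wild type was -0.28 ± 0.093 (edgeR adjusted p 0.515) and without the 6 animals -0.27 ± 0.11 (0.776). Double het lay above Slc25a1 het by 0.41 ± 0.096 (edgeR adjusted p 0.243), or by 0.35 ± 0.11 without the 6 animals (0.632). DESeq2 gave the same 0.41 with an adjusted p of 0.0348. This was the sole call of a member by any setting in a comparison of genotypes, and the adjusted p of that difference ranged from 0.0348 to 0.632 over settings.

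In cortex Cck had a median of 207 CPM in wild type, against 186 (Slc25a1 het), 160 (Mrpl40 het) and 181 (double het), with ranges that overlapped (179 to 239 in wild type and 142 to 195 in Mrpl40 het). The log2 difference from wild type was -0.30 ± 0.099 in Mrpl40 het (edgeR adjusted p 0.56) and -0.22 ± 0.098 in double het (0.415). Without the 6 animals the double het value was -0.10 ± 0.10. In Mrpl40 het and double het Cck thus lay below wild type in cortex and above it in hippocampus, and the terms for this tissue difference were 0.34 ± 0.11 (adjusted p 0.829) and 0.32 ± 0.12 (0.85), neither of which passed.

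Besides Cck, the members with an unadjusted p under 0.05 in Slc25a1 het hippocampus were 4 genes of the granule machinery. For all 4 and for Cck, the lowest value of the tissue was that of 1 library, Slc25a1 het 7. That library also had the highest astrocyte and microglia marker sums of hippocampus (7493 and 571 CPM). Its part in these differences was not tested. Chgb ranged from 575 to 1089 CPM in wild type and from 386 to 756 in Slc25a1 het, while Mrpl40 het spanned 612 to 1188 and double het 587 to 1076. Slc25a1 het was lowest by median, but every pair of groups overlapped. Its log2 difference from wild type was -0.39 ± 0.16 (edgeR adjusted p 0.593), and -0.48 ± 0.20 without the 6 animals. Vgf had means of 106 ± 10.2 CPM in wild type (SD, n = 8), 89.6 ± 18.4 in Slc25a1 het, with 110 ± 18.9 for Mrpl40 het and 117 ± 20.4 for double het (n = 7 each). The difference of Slc25a1 het from wild type was -0.24 ± 0.12 for Vgf, -0.17 ± 0.072 for Chga and -0.17 ± 0.073 for Pcsk2, with edgeR adjusted p of 0.639, 0.603 and 0.604. Double het lay above Slc25a1 het for Chgb (0.43 ± 0.17), Vgf (0.38 ± 0.12) and Pcsk2 (0.20 ± 0.075) and below it for Scg3 (-0.15 ± 0.061). The adjusted p of these 4 ranged from 0.422 to 0.504. Without the 6 animals the values were 0.58 for Chgb, 0.34 for Vgf, 0.26 for Pcsk2 and -0.17 for Scg3.

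In Mrpl40 het hippocampus, 4 peptides had unadjusted p under 0.05 and lay below wild type. Npy had medians of 25.1 CPM in wild type and 21.5 CPM in Mrpl40 het and a log2 difference of -0.21 ± 0.083, or -0.12 ± 0.079 without the 6 animals. The other values were -0.82 ± 0.34 for Grp, -0.85 ± 0.36 for Adcyap1 and -0.39 ± 0.18 for Vip, all with an edgeR adjusted p between 0.590 and 0.596. Adcyap1 spread from 3.28 to 14.0 CPM within wild type and from 1.44 to 9.76 CPM within Mrpl40 het, and 4 of the 7 Mrpl40 het libraries lay below every wild-type library. For Grp 5 of 7 did, with medians of 4.38 CPM in Mrpl40 het and 7.29 CPM in wild type. Beside this, the 10 CA pyramidal markers summed to between 716 and 1222 CPM (median 918) in Mrpl40 het and between 674 and 919 CPM (median 792) in wild-type hippocampus. Over all hippocampus libraries, with group means removed, the mean log2 CPM of this list ran against Adcyap1 (r -0.845) and Grp (r -0.609, rho -0.617, permutation p 0.00044, adjusted p 0.00636, without 2 libraries -0.562). With the log2 of its summed CPM, r was -0.685 for Adcyap1 and -0.454 for Grp. The part of this list in the Mrpl40 het values was not tested. With 2 surrogate variables, the values for Grp and Adcyap1 were -0.31 and -0.41. Without the 6 animals they were -0.91 for Grp, -0.80 for Adcyap1 and -0.43 for Vip. Hippocampus wild type 8 held the highest Vip (18.4 CPM) and Adcyap1 (14.0 CPM) of the tissue. Over all settings, among them a fit without that library, the Vip value lay between -0.43 and -0.24. That of Adcyap1 lay between -0.96 and -0.41. Pcsk2 lay above wild type (0.15 ± 0.073).

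In cortex the largest differences were in scarce receptors. Oprk1 ranged from 1.88 to 4.49 CPM in wild type (median 2.42), from 2.61 to 7.84 in Mrpl40 het (median 3.97) and from 1.73 to 3.80 in double het (median 2.46). It lay above wild type in Mrpl40 het by 0.69 ± 0.23 (edgeR adjusted p 0.563), and the difference of double het from Mrpl40 het was -0.70 ± 0.25 (0.556). Beside this, 6 claustrum and amygdala markers, one of which is Oprk1 itself, summed to between 176 and 271 CPM in Mrpl40 het and between 145 and 242 CPM in wild type. Without the 6 animals the Oprk1 value was 0.65 ± 0.26. With 2 surrogate variables it was 0.42 ± 0.20, and the part of the markers in it was not tested. Oprm1, with 5 to 18 counts per library in Mrpl40 het and 6 to 10 in wild type, lay above wild type in double het (0.64 ± 0.24, or 0.52 without the 6 animals) and in Mrpl40 het (0.49 ± 0.24, or 0.48). Npy2r lay below wild type in Slc25a1 het (-0.32 ± 0.14) and Mrpl40 het (-0.33 ± 0.14), and had an interaction of 0.61 ± 0.21 (adjusted p 0.805). The wild-type library 2 held the highest Npy2r value of cortex, 6.79 CPM. Without it these 3 values were -0.16 ± 0.12, -0.17 ± 0.12 and 0.45 ± 0.17, the first 2 with an unadjusted edgeR p of 0.175 and 0.149. Npy (-0.13 ± 0.052) and Npy5r (0.20 ± 0.097) in double het had adjusted p of 0.324 and 0.445. Between double het and Slc25a1 het, Nmb (-0.35 ± 0.13), Sstr1 (0.22 ± 0.098) and Sstr4 (0.34 ± 0.16) had unadjusted p under 0.05.

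**Figure D4:**
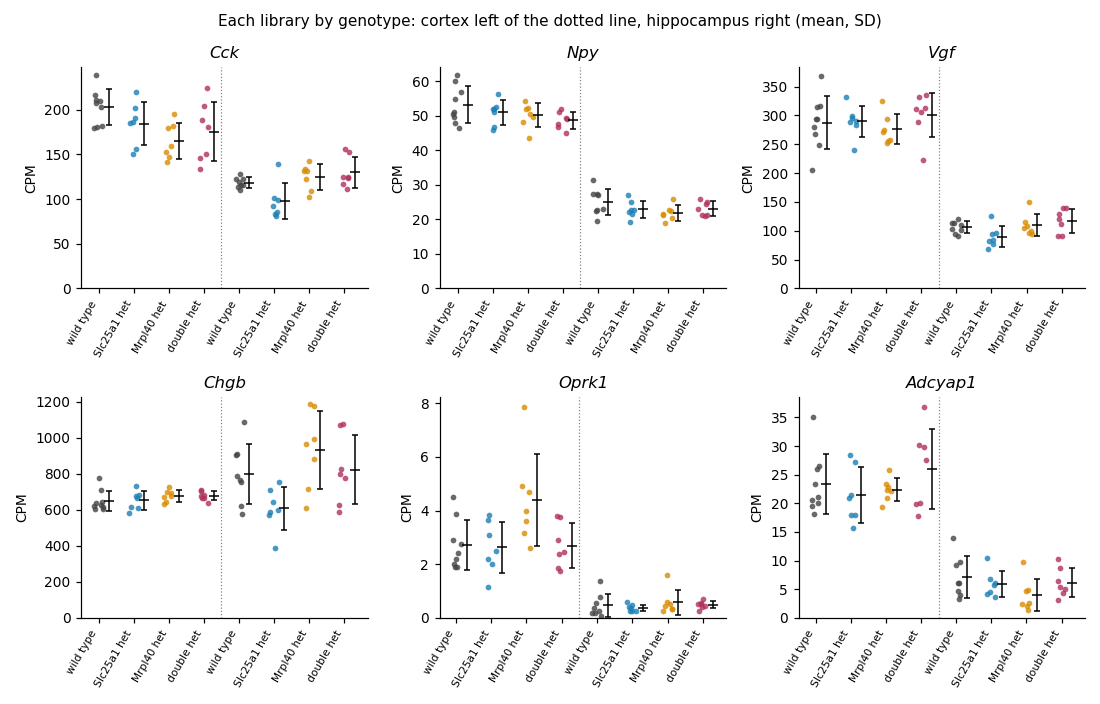
CPM of 6 genes in each library by genotype, cortex to the left of the dotted line and hippocampus to the right, with mean and SD beside the points. In hippocampus Cck of Slc25a1 het lies between 81.3 and 139 CPM, with 1 library above all wild-type libraries, and in no panel do all libraries of a genotype stand clear of wild type.

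The effect of a genotype was also compared between tissues within animals. None of the 42 genes passed in the 3 tests by edgeR, against 0%, 0% and 0.0234% of genes tested for Slc25a1 het, Mrpl40 het and double het. At an unadjusted p under 0.05 there were 4, 4 and 1, against 6%, 5.83% and 5.03% of genes tested. DESeq2 called 0 members as well. For Slc25a1 het these were Chgb (-0.42 ± 0.19), Pcsk2 (-0.22 ± 0.080), Cckbr (-0.46 ± 0.22) and Vgf (-0.33 ± 0.15). For Mrpl40 het they were Adcyap1 (-0.93 ± 0.39), Grp (-0.71 ± 0.28), Npy2r (0.52 ± 0.18, or 0.37 without wild-type animal 2) and Cck, given above.

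One gene of the wider pathway list did pass. Pcsk1n encodes proSAAS, a granin-like protein known as an inhibitor of the convertase Pcsk1. In cortex its CPM ranged from 265 to 350 in wild type (median 333) and from 204 to 318 in Slc25a1 het (median 281), with 181 to 320 for Mrpl40 het (median 222) and 168 to 300 for double het (median 238). In hippocampus it ranged from 131 to 212 in wild type (median 169) and from 105 to 241 in Slc25a1 het (median 129), with 134 to 216 for Mrpl40 het (median 153) and 149 to 228 for double het (median 203). Double het thus lay below wild type in cortex by median and above it in hippocampus. The difference from wild type was -0.49 ± 0.13 in cortex (edgeR adjusted p 0.115) and 0.18 ± 0.15 in hippocampus (0.989), and neither passed alone. Their difference between tissues was 0.67 ± 0.11 with an adjusted p of 0.0171 by edgeR and 5.23e-06 by DESeq2 (unadjusted p 8.02e-07 by edgeR). Without the 6 animals it was 0.59 ± 0.12 with an adjusted p of 0.984, without the 3 hippocampus libraries rich in cerebellar or choroid plexus RNA 0.67 ± 0.12 (0.179), and without the animal block 0.65 ± 0.20 (0.764), so that the call was lost under these choices while the size stayed between 0.59 and 0.67. No other gene of the pathway list passed in any comparison of genotypes.

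Members differed in their spread within genotypes. After removal of group means, the most stable genes were Scg3 and Cpe in cortex, with SDs of 0.048 and 0.060 on the log2 scale, and Scg3 and Scg2 in hippocampus (0.11 and 0.12). The most variable were Cort (0.46) and Oprk1 (0.43) in cortex, and Nts (0.83), Adcyap1 (0.64), Grp (0.59) and Crhbp (0.55) in hippocampus. Nts in hippocampus ran from 0.215 CPM in Mrpl40 het 5 to 17.5 CPM in wild type 8, both among the libraries that stood apart by their markers. Hippocampus wild type 8 also held the highest Sst, Cckbr, Pcsk1 and Adcyap1 of that tissue, beside the highest neocortical layer sum. Without that animal the log2 tissue differences were -3.90 ± 0.073 for Cckbr, -2.40 ± 0.074 for Pcsk1, -2.10 ± 0.14 for Adcyap1 and 4.15 ± 0.22 for Nts.

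Relations between members were described within tissues. Over 30 cortex libraries, 90 of 703 pairs of members passed a permutation test of Pearson's r (100000 permutations, adjusted over all pairs), 64 with a positive and 26 with a negative r. Over 29 hippocampus libraries 143 of 666 passed, 86 positive and 57 negative. The smallest r that passed was 0.484 in size in cortex, which 12.8% of member pairs reached against 4.35% of all pairs of the 16456 genes with a mean of at least 1 CPM. In hippocampus it was 0.467, reached by 21.5% of member pairs and by 8.1% of all pairs of 16424 genes. Pairs share their libraries and are not independent, and the difference of these shares was not tested. The permutation p of each pair named here was 1e-05, the smallest these permutations can give. In cortex the highest r was that of Tac1 and Crhbp, at 0.857 (Spearman's rho 0.875, adjusted p 0.00078, r without the 2 farthest libraries 0.815). Pam and Npy1r had 0.852 (rho 0.826, without 2 libraries 0.783), and Vip and Tac2 with 0.808 (rho 0.802, without 2 libraries 0.713). Scg2 and Vgf had an r of 0.774 (rho 0.766, without 2 libraries 0.638). In hippocampus Chga and Oprl1 led with 0.898 (rho 0.893, adjusted p 0.00033, without 2 libraries 0.890). The granin Chgb and the convertase Pcsk2 had 0.885 (rho 0.869, without 2 libraries 0.878). Pdyn and Vgf ran opposite, at -0.844 (rho -0.768, without 2 libraries -0.786).

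The same libraries also varied in marker lists of cell types and regions, each taken as the mean log2 CPM of its genes. In hippocampus 120 of 555 pairs of a member and a list passed, and in cortex 65 of 570. The share of all genes was computed per list, not for these totals, and is given for the lists named. Pdyn, which dentate granule cells are known to make, tracked the dentate granule list in hippocampus with an r of 0.941 (rho 0.915, permutation p 1e-05, adjusted p 0.00037, without 2 libraries 0.924). Npy1r tracked the same list (0.839, rho 0.766, without 2 libraries 0.869), as did Npy5r (0.755, rho 0.762, without 2 libraries 0.706), whereas Vgf ran against it (-0.752, rho -0.675, without 2 libraries -0.714). Adcyap1 ran against the CA pyramidal list (-0.845, rho -0.862, without 2 libraries -0.823) and with the thalamic list (0.805, rho 0.720, without 2 libraries 0.720). It also ran with the claustrum and amygdala list (0.790, rho 0.700, without 2 libraries 0.716). The thalamic sum overlapped between tissues, with 147 to 182 CPM in cortex and 130 to 250 CPM in hippocampus. Scg3 tracked the astrocyte list (0.880, rho 0.882, without 2 libraries 0.863). All these p were 1e-05. In all, 18 of 37 members (48.6%) passed with the dentate granule list and 14 (37.8%) with the CA pyramidal list. Of all genes with a mean of at least 1 CPM, 22.7% and 15.7% had an r of the size of the smallest that passed. With the thalamic list 21.6% of members passed against 10.4% of all genes, and with the claustrum and amygdala list 21.6% against 4.39%. With the astrocyte list it was 18.9% against 14.8%, close to that background.

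In cortex the lists were others. Npy1r (-0.797, rho -0.752, without 2 libraries -0.728) and Pam (-0.782, rho -0.729, without 2 libraries -0.709) ran against the oligodendrocyte list, whose sum spread from 1716 to 4303 CPM over cortex libraries. Oprl1 ran against the immediate early list (-0.786, rho -0.712, without 2 libraries -0.696), each with a permutation p of 1e-05 (adjusted p 0.00095). Oprk1 tracked the claustrum and amygdala list without itself (0.743, rho 0.778, permutation p 2e-05, adjusted p 0.00127, without 2 libraries 0.686). Sstr2 also tracked that list (0.756, rho 0.813, permutation p 1e-05, adjusted p 0.00095, without 2 libraries 0.703). The full list summed to 143 to 273 CPM in cortex and to 302 to 457 CPM in hippocampus, so its sum did not set claustrum and amygdala apart from hippocampus. With the oligodendrocyte list 10 of 38 members (26.3%) passed, against 8.68% of all genes at the smallest size that passed. The shares were 18.4% against 5.15% with the claustrum and amygdala list, and 13.2% against 2.37% with the immediate early list. The relations named here had the same sign when a list was taken as the log2 of its summed CPM. The 9 members that passed with the neocortical layer list in cortex had the opposite sign with its sum and are not described. The part of these lists in the genotype values was not tested.

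**Figure D5:**
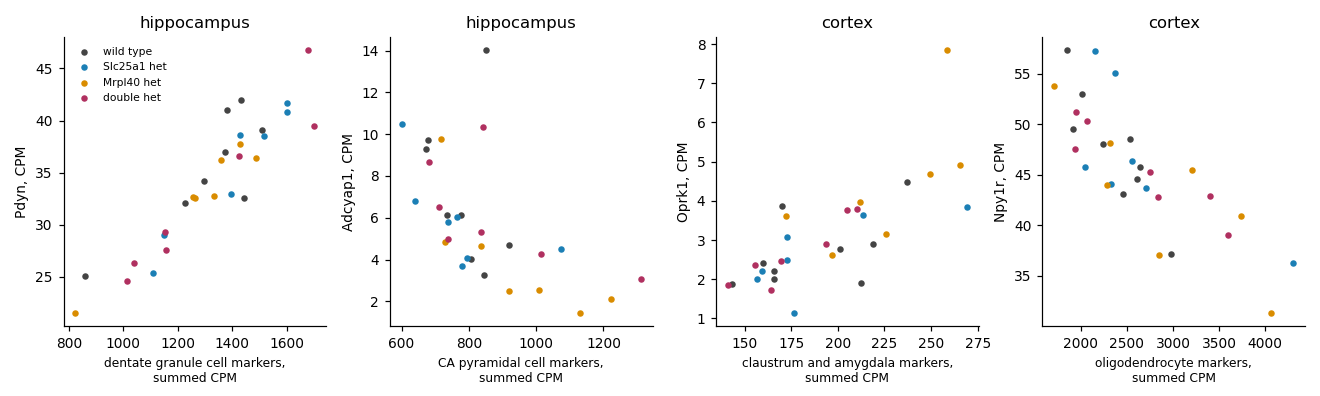
CPM of 4 genes against the summed CPM of a marker list, with 1 point per library coloured by genotype: Pdyn and Adcyap1 in hippocampus, Oprk1 and Npy1r in cortex. Pdyn is higher where the dentate granule sum, which spans 824 to 1702 CPM, is higher, and Adcyap1 is lower where the CA pyramidal sum is higher. The genotypes were not spread evenly along each cloud. No wild-type library had a CA pyramidal sum above 919 CPM, while the highest sum, 1311 CPM, was that of a double het library.

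The tissues of the same animal were compared last. Of 36 members measured at a mean of at least 1 CPM in both tissues, 3 correlated across the 29 animals after removal of group means (8.33%, against 4.31% of 15861 genes with an r of at least 0.525 in size): Cort with an r of 0.592 (rho 0.600, permutation p 0.00079, adjusted p 0.0284, without 2 animals 0.599), Scg5 with 0.538 (rho 0.469, permutation p 0.00265, adjusted p 0.0400, without 2 animals 0.455) and Grp with 0.525 (rho 0.538, permutation p 0.00333, adjusted p 0.0400, without 2 animals 0.433). For the other 33 members no relation between the cortex and the hippocampus of an animal passed.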

How the data were processed

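Poly(A) RNA of cortex and hippocampus was sequenced with a kit that marks strand, per the labels' protocols. The authors deposited raw counts per gene, and a normalized signal that equalled the counts divided by 1 factor per library within a relative range of 9.85e-10. FastQC, HISAT2, featureCounts, DESeq2 and the builds mm39 and GRCm39 are named per the submitters' processing notes. No source used here gives the strand setting of the counting, and counts of genes with an antisense partner are uncertain. Exon lengths came from GENCODE vM21 (GRCm38), an older build. Rows without a symbol held 0.885 to 2.13% of counts.

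Counts were tested with edgeR 4.0.16 (R 4.3.3, limma 3.58.1) by the quasi-likelihood test with TMM scaling and filterByExpr, all 4 genotypes in 1 fit per tissue, with Benjamini-Hochberg adjustment over all genes tested and a threshold of 0.05. The tissue difference was fitted with the animal as a block, since the labels give an animal ID shared by its 2 tissues. CPM used TMM-scaled totals of all 59 libraries. Correlations used log2(CPM + 0.5) after removal of group means, for members with a mean of at least 1 CPM, with 100000 permutations. Alternatives were DESeq2 1.42.0 and its size factors, no filter, a replicate block, 2 genotypes at a time, wild-type animals only, 2 surrogate variables (sva 3.50.0), limma on log2(normalized count + 1), and fits without the 6 animals. Fits without 3 hippocampus libraries with over 2 times the median of cerebellar or choroid plexus markers, without hippocampus wild type 8 and without cortex wild type 2, were chosen after seeing the data.

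Members and lists were chosen with earlier results of these data known. Values in every group were to be given for members past the test in a genotype comparison, the 6 with the smallest p against wild type per tissue, and the 6 largest differences in each direction between tissues. Other pathway genes were named where they passed, at most 4 per direction. Further members and all correlations named were chosen after their values were seen. Simulated counts gave the recovery stated, with 10 false calls among 20205 genes in cortex and 4 among 19980 in hippocampus. The smallest chi-square per degree of freedom between libraries of a group was checked, and no library was a copy of another in its group. Pairs from different groups were not checked. Precision is limited by the number of animals. The p-values of genotype comparisons within a tissue rest on the spread between the animals sampled. Those of the tissue tests rest on the spread of the difference within animals, and those of correlations on permutations.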

Additional observations from a re-analysis of the deposited data

Results flagged for a closer look

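Of 144 groups of libraries tested over 18 members, 13 held a library far from the others of its group, and chance alone flags about 1 in 20 groups. In hippocampus, Slc25a1 het 1 held 139 CPM of Cck and 12.6 CPM of Sstr4, both the highest of their group. Slc25a1 het 7 held the lowest Chga (69.3 CPM) and the lowest Pcsk2 (193 CPM) of its group. Mrpl40 het 5, a library with high choroid plexus markers, held the highest Oprk1 (1.61 CPM), Chga (124 CPM) and Vgf (150 CPM). Mrpl40 het 6 held the highest Grp (13.3 CPM) and Adcyap1 (9.76 CPM). In cortex, wild type 2 held the highest Npy2r (6.79 CPM) and wild type 1 the highest Adcyap1 of its group (35.1 CPM). Double het 3 held the lowest Vgf (222 CPM) and double het 4 the highest Scg3 (399 CPM) of their group.

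The double het effect on Pcsk1n differed between hippocampus and cortex by 0.67 on the log2 scale, by the edgeR test of the difference itself (adjusted p 0.0171).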

How the results depend on the processing

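The count of members that differed between tissues was 39 in every setting except wild-type animals alone, where it was 31. In the comparisons of genotypes the count was 0 in all settings, with the exception of hippocampus double het against Slc25a1 het. There DESeq2 called 1 member (Cck, 0.41, adjusted p 0.0348) and 14 of 20162 genes in all. Of the values of members named by the rule and of Pcsk1n under alternatives, 462 kept their direction and side of the threshold, 1 passed newly (that of Cck), 4 no longer passed and 0 reversed. The 4 were Sstr4 between tissues in wild-type animals alone (0.20, and 5 members not named by the rule also failed the threshold there, with 2 not tested) and Pcsk1n without the animal block (0.65), without the 6 animals (0.59) and without the 3 hippocampus libraries (0.67). The causes were not tested. Libraries of different genotypes shared only a number: the labels do not tie animals of one number, and not every pair correlated above 0.1. Deviations of libraries with the same number had a median correlation of 0.126 in cortex (-0.405 to 0.533, 42 pairs; -0.0235 for other numbers) and 0.0534 in hippocampus (-0.456 to 0.528, 39 pairs; 0.00976 for other numbers). With a replicate block the count of members called stayed at 0 in the comparisons of genotypes. The 2 tissues of an animal are paired by the labels' animal ID, with a median correlation of 0.109 (29 pairs), and without that animal block 39 members differed between tissues. Leaving out each replicate in turn was not run, since groups held 7 or more animals. Low counts limit Oprm1, Nts, Rln1 and Oprk1.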
